A study of Mus musculus with 4 samples.

Results

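The genes described here copy DNA, run mitosis or control entry into the cell cycle, and they were read in mouse mitral valve that carried 0, 1 or 2 mutant copies of fibrillin-1, the glycoprotein of extracellular microfibrils. A list of 41 genes was given, and every probe set annotated to exactly 1 of them was taken. This found 77 probe sets for 40 genes, of 12393 genes in all; Ccnb1 was not analysed here. The genes fall into 18 for replication (37 probe sets), 14 for mitosis (20 probe sets) and 8 for G1 cyclins, kinases and inhibitors (20 probe sets). The wild-type (WT) group, Fbn1 +/+, held 1 array, the heterozygous (Het) group, written Fbn1 C1039/+ with the substituted residue left out, held 2 arrays, and the homozygous (Hom) group, Fbn1 C1039G/C1039G, held 1 array. The labels give no strain, age or sex, and do not say whether an array came from 1 animal or a pool, so p-values here reflect no more than how the arrays vary, which may be technical.

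Before a cell copies its genome, the MCM proteins are loaded on DNA at origins as a ring-shaped helicase, and polymerases, the clamp Pcna and the single-strand binding proteins Rpa1 to Rpa3 then follow the fork. Most of these genes are switched on by E2F factors at the end of G1, whereas cyclins B, Aurora kinases and the spindle checkpoint genes are expressed later, in G2 and mitosis, through NF-Y at CCAAT boxes and a further element called the CHR (cell cycle genes homology region). D-type cyclins with Cdk4 drive G1, and Cdkn1a (p21) and Cdkn1b (p27) hold cyclin-dependent kinases back. In a heart valve the dividing cells can be interstitial or endothelial cells or blood cells, and in bulk tissue fewer dividing cells and less RNA per dividing cell cannot be told apart.

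The promoters below belong to genes described by their values on every array, and Mcm7 was included as an example with both E2F core and CCAAT matches. Mcm7, Mcm2 and Rpa2 stand for replication, Ccnb2 and Top2a for mitosis, and Nek2 is the mitotic gene that was highest on the Hom array. Each run is 300 bases, 250 before and 50 from the RefSeq transcription start (build GRCm38.p6), 5′ to 3′, with capitals for matches on either strand to the E2F core (spelled TTTCCCG or as TTTCGCG, or else TTTGCCG and also TTTGGCG), the CHR (spelled TTTGAA) or the CCAAT box. They were chosen after the values were seen.
Mcm7 promoter, chr5:138171834-138172133, minus strand: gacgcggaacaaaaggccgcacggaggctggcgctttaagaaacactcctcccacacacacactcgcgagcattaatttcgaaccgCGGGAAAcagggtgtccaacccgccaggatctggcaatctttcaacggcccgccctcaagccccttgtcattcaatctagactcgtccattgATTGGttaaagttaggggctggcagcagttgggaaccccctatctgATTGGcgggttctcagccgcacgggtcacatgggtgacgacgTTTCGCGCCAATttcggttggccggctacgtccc
Mcm2 promoter, chr6:88898731-88899030, minus strand: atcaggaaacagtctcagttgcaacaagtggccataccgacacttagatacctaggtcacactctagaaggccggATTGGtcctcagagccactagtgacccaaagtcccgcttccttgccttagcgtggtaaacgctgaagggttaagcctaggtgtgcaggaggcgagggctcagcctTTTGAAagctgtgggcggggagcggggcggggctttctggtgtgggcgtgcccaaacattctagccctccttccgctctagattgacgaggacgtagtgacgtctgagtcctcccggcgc
Rpa2 promoter, chr4:132768110-132768409, plus strand: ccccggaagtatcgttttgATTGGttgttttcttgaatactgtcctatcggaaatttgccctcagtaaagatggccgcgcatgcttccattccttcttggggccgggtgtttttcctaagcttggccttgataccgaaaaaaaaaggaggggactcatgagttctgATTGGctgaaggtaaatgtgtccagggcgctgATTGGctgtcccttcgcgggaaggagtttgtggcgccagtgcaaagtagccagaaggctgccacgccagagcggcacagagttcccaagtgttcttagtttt
Ccnb2 promoter, chr9:70421505-70421804, minus strand: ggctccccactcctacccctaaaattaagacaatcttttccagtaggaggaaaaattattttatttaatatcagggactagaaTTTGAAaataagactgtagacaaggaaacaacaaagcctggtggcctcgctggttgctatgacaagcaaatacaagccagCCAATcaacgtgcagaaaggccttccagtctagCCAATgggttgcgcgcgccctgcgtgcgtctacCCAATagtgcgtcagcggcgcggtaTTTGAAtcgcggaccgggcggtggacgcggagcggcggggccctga
Top2a promoter, chr11:99024140-99024439, minus strand: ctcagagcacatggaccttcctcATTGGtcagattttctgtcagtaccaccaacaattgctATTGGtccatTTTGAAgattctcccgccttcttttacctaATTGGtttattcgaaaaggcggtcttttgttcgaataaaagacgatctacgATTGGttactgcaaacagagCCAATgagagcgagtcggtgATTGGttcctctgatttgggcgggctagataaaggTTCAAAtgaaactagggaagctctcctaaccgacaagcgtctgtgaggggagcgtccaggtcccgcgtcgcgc
Nek2 promoter, chr1:191821223-191821522, plus strand: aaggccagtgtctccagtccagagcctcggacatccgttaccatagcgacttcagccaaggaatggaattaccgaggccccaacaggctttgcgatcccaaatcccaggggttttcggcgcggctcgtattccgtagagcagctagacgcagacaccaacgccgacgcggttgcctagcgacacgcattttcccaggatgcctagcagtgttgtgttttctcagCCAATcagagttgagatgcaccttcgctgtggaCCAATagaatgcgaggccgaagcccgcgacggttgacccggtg
The Mcm7 promoter shown, 1 of 2 in RefSeq, held an E2F core match at -164 and another at 17 from the start, and 3 CCAAT matches, whereas that of its other start held 0 E2F core matches and 1 CCAAT match. The Mcm2 promoter held no E2F core match in this window, with a CHR match at -70 and a CCAAT match at -175. The Rpa2 promoter held 3 CCAAT matches and no E2F core match, so 2 of the 3 replication genes shown lack that motif here. Top2a held 6 CCAAT and 2 CHR matches and Ccnb2 held 3 and 2, while Nek2 held 2 CCAAT matches and no CHR match. In Mcm7 the E2F core match at 17 and a CCAAT match at 24 lie side by side and form 1 run of capitals.

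RefSeq promoters were found for 34 of the 40 genes, 40 promoters in all because 5 genes (Mcm7, Fen1, Lig1, Ccnd3 and Cdkn1a) have more than 1 start. An E2F core match lay in 8 of 20 replication promoters (40%), 2 of 12 mitosis promoters (16.7%) and 1 of 8 G1 promoters (12.5%), beside 6.7% of 32851 promoters of the same length. A CHR match lay in 8 of 12 mitosis promoters (66.7%), 2 of 20 replication promoters (10%) and none of the 8 G1 promoters, beside 17.9% of all. A CCAAT match lay in 10 of 12 mitosis promoters (83.3%), 13 of 20 replication promoters (65%) and 3 of 8 G1 promoters (37.5%), beside 37.4% of all. A match is a description of letters and does not show a bound site.

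Some facts of the arrays bear on every value below. Expression is given as the deposited intensity, already scaled by its makers so that the trimmed mean is 150.1 on each array, and 4 values in a row stand for WT first, then both Het replicates by number, then Hom. The brightest probe set by mean stands for each gene, values below a floor of 18.9 were set to it before log2, and probe sets are never compared with each other for level. Het replicate 2 stood apart. The ratio of 3' to 5' Actb signal, which rises as RNA degrades, was 3.04 on it and 2.16 to 2.25 on the others. The same ratio for Gapdh set it apart less, at 4.65 against 4.18 in WT, 3.19 in Het replicate 1 and 3.84 in Hom. The geometric mean of 4 hybridisation controls was 560 against 1146 to 1682. The 20 leukocyte and macrophage markers had a median 0.59 log2 units above WT there, the 22 cardiomyocyte markers 1.03 below it, and the 20 valve interstitial markers 0.58 below it. Of the defining markers of the labelled tissue, the matrix genes Col1a1 (1268, 931, 584 and 938) and Col3a1 (6140, 5747, 3205 and 4865) were above the floor on every array, as were the cardiomyocyte gene Myh6 and the endothelial gene Cdh5. The 11 platelet and megakaryocyte markers had a median above WT in both Het arrays, by 0.45 and 1.05, and in Hom, by 0.31.

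**Figure D1:**
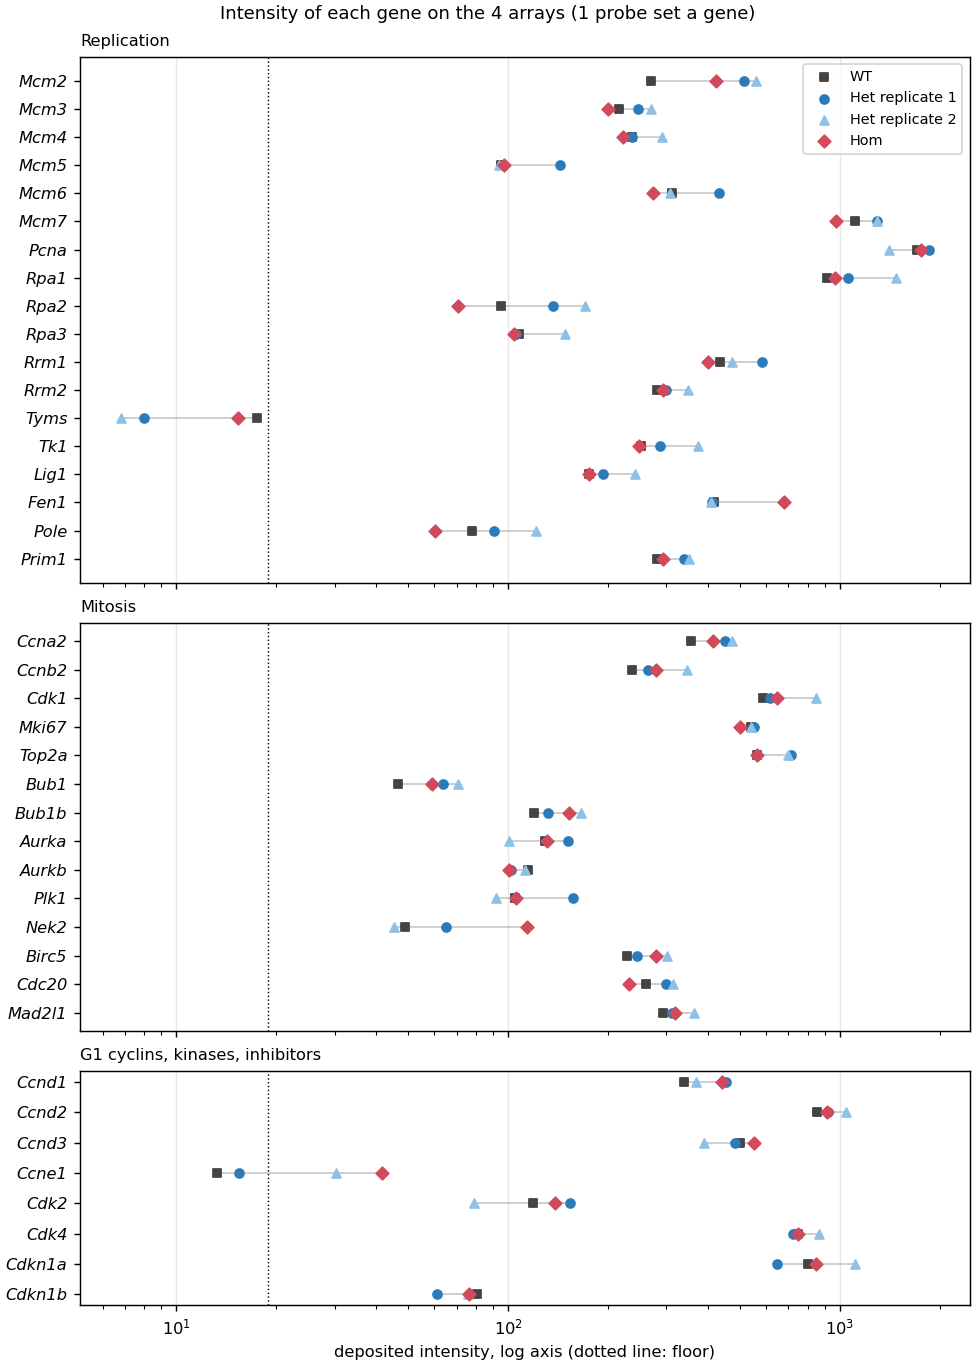
Deposited intensity (log axis) of each of the 40 genes on the 4 arrays, from its brightest probe set; squares are WT, circles and triangles the Het replicates, diamonds Hom, and the dotted line is the floor of 18.9. Mcm2 has WT lowest and both Het arrays highest, and Tyms lies below the floor on every array.

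Het was set against WT to read the effect of 1 mutant copy. Replication and mitosis genes had small positive medians in both Het arrays, while G1 genes split in direction. The median replication gene was 0.27 log2 units higher in Het than in WT (0.20 on the first Het array, 0.31 on the second), the median mitosis gene 0.24 higher (0.18 and 0.31), and the median G1 gene 0.08 higher (-0.03 and 0.17). The median of all 7314 genes tested was -0.02. Both Het differences subtract the same WT array, so they are not independent.

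Both Het arrays lay above WT, with no overlap, at 22 of the 40 genes, namely 11 of 18 for replication, 9 of 14 for mitosis and 2 of 8 for G1. The same held for 20.9% of all 12393 genes and for 27.1% of the 7314 genes bright enough to be tested. Both lay below WT at 4 genes, Fen1, Aurkb, Ccnd3 and Cdkn1b, against 28.2% of all genes and 28.8% of those tested. Centring every array on a common median, which puts the median gene tested 0.19 above WT in Het replicate 2, gives 27 genes above and 1 below, beside 35.4% and 21% of genes tested. With all 62 probe sets of mean intensity at or above 62.6 counted separately, both Het arrays were above WT at 38 and below at 6, against 26% and 28.6% of all such probe sets. Het replicate 1 taken alone was above WT at 30 genes, against 44.6% of all genes and 52.1% of those tested, and Het replicate 2 at 27, against 35.2% and 46.2%. No gene of the 40 passed limma at an adjusted p of 0.05, and 0% of all genes tested did; only Mcm2 passed an unadjusted 0.05 among the 37 tested, against 1.38% of all genes tested. The other 3 genes, Tyms, Bub1 and Ccne1, had means below 62.6 and were not tested. The test's 1 residual degree of freedom comes from the Het pair, whose log2 differences have an SD of 0.58 over the genes tested. The standard error of a Het minus WT difference was 0.43 to 0.50 over the 37 genes.

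**Figure D2:**
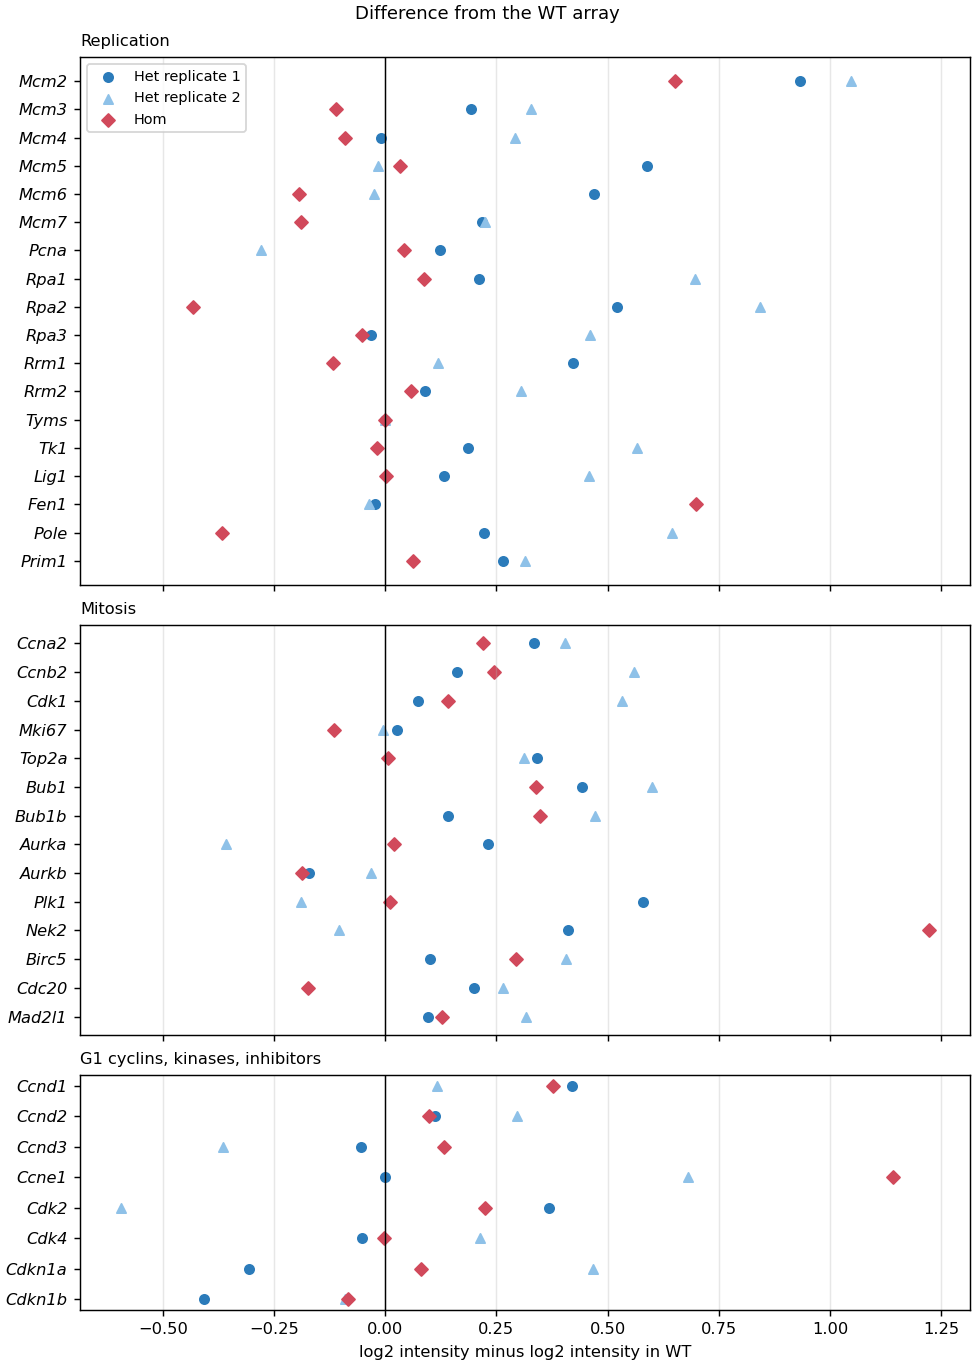
Log2 difference of each gene from the WT array for Het replicate 1 (circles), Het replicate 2 (triangles) and Hom (diamonds), in 3 panels by role. In the replication panel most Het points lie right of 0 and most Hom points lie near 0 or left of it.

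The highest Het minus WT difference was that of a helicase subunit. Mcm2, a subunit of the MCM ring, read 270.3 in WT, 515.5 and 558.2 in the Het arrays and 424.4 in Hom. Both Het arrays were above Hom, and Hom was above WT. The Het mean of 536.9 ± 30.2 (SD, n = 2) was 1.98-fold the WT value (log2 difference 0.99, SE 0.43), the only one of the 40 genes at least 1.5-fold above WT in both Het arrays, where 1.85% of all genes and 1.34% of those tested were. None was at least 1.5-fold below WT in both, where 3.88% of all genes and 1.82% of those tested were. These values come from a probe set with the suffix letter s, given to probe sets that may match more than 1 transcript. The other Mcm2 probe set, with no suffix letter, read 153.3, 204.7, 164.7 and 156.4. It gave 0.42 and 0.10 for the Het arrays and 0.03 for Hom, with no array 1.5-fold above WT. The size of the Mcm2 difference therefore depends on the probe set.

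The other 5 MCM subunits differed less. Mcm3 read 215.5, 246.4, 270.4 and 199.7, and Mcm7 read 1110, 1292, 1298 and 973.6. By these probe sets the Het arrays were above WT and Hom was lowest in both genes. Over all their probe sets of mean intensity at least 62.6, Hom lay on both sides of WT. Its differences ran from -0.11 to 0.26 for Mcm3 and from -0.76 to 0.31 for Mcm7. Mcm5, at 95.1, 143.1, 94 and 97.3, and Mcm6, at 312.8, 433, 307.3 and 273.6, were high in Het replicate 1 only. Mcm4 was high in Het replicate 2 only, at 237.1, 235.6, 290.3 and 222.8.

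The next highest was that of a subunit of the complex that coats single-stranded DNA. Rpa2 read 95.4 in WT, 136.9 and 171.2 in Het and 70.7 in Hom. Het and Hom lay on opposite sides of WT: Het was 1.60-fold above it (log2 difference 0.68, SE 0.43) and Hom lower by 0.43 on the log2 scale, which put Hom 1.11 log2 units below Het (log2 difference -1.11, SE 0.43). A dim second Rpa2 probe set, at 27.6, 47.6, 39.5 and 36.7, also had both Het arrays highest but put Hom 0.41 above WT and -0.24 from Het, so the side of WT on which Hom lay depends on the probe set. Rpa1 read 913.1, 1058, 1479 and 970.1, higher in Het by 0.45 (SE 0.44), and its other probe set gave 161.2, 238.3, 240.5 and 169.6. Both Rpa1 probe sets had Hom close to WT and below both Het arrays. Rpa3, the smallest subunit, was high in Het replicate 2 only, at 107.9, 105.5, 148.5 and 104.

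Polymerase, primase and nucleotide supply genes gave smaller differences. Pole, the catalytic subunit of the leading-strand polymerase, read 77.7, 90.6, 121.4 and 60.3, the second lowest Hom value relative to WT among the replication genes. Tk1, thymidine kinase, read 251.7, 286.5, 372.8 and 248.5. Het was above WT in both, while Hom was level with WT for Tk1 and below it for Pole. Prim1, the primase, read 281.5, 338.2, 350.1 and 294, and Lig1, the ligase that joins Okazaki fragments, 175.8, 192.7, 241.7 and 175.9. Rrm1 and Rrm2, the subunits of ribonucleotide reductase, were at 435.6, 584, 473.1 and 401.6 and at 281.1, 298.9, 347.6 and 292.5. By these probe sets all of them had both Het arrays above WT and above Hom. A second bright Rrm1 probe set, at 208.1, 207.6, 157.7 and 214.5, had Hom highest and neither Het array above WT. In a second Rrm2 probe set, at 65.7, 128.6, 89.6 and 108.1, Hom lay between the Het arrays. The exceptions were Pcna, the sliding clamp, at 1707, 1859, 1406 and 1757, where the Het arrays lay on opposite sides of WT, and Fen1, the flap endonuclease, at 418.4, 412, 407.8 and 679.1. Fen1 was flat across WT and Het and 1.62-fold higher in Hom (log2 0.70, SE 0.49), but its other probe set read 35.6, 65.5, 83.9 and 43.1, with Het highest. That second probe set is dim, and the first has the suffix letter x, given to probe sets that may bind transcripts of other genes. All 3 Tyms (thymidylate synthase) probe sets stayed below the floor on every array and give no direction.

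Among mitosis genes the Het minus WT differences ran from -0.10 to 0.52, a narrower range than the -0.08 to 0.99 of the replication genes. Bub1, a kinase of the spindle checkpoint, read 46.7, 63.5, 70.8 and 59.1, and Ccna2, the S and G2 phase cyclin, read 356.6, 450, 471.6 and 415.2. Bub1b, its relative in the checkpoint, read 120, 132.4, 166.3 and 152.7. WT was lowest in all 3, and Hom lay within or below the Het range. In the other bright Ccna2 probe set, at 256.3, 342.1, 229.7 and 335.7, Het replicate 2 was lowest, as it was in a dim Bub1 probe set at 26, 28.1, 19.2 and 25.8. Ccnb2, a mitotic cyclin, read 235.8, 263.9, 347.3 and 279.4, and Top2a, the topoisomerase that untangles DNA, 561.4, 711.7, 697.4 and 564.3. The Het arrays of Top2a agreed closely, at 704.5 ± 10.1 (SD, n = 2), with WT and Hom together at the lower level. Cdk1, the mitotic kinase, read 584.9, 615.6, 845.7 and 644.7, with Het replicate 2 highest. Birc5 (survivin) read 228.1, 244.6, 302.2 and 279.5, and Mad2l1, of the spindle checkpoint, 292.4, 312.7, 364.2 and 319.7. All 8 of these had both Het arrays above WT, and none was 1.5-fold above it in both.

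Mki67, the widely used proliferation marker, did not share the pattern, at 540.9, 550.8, 539 and 499.8. The Het arrays straddled WT and Hom was 0.11 log2 units lower. Cdc20, the activator of the anaphase-promoting complex, read 261.1, 299.9, 313.6 and 231.6, with both Het arrays above WT and Hom below all others. Its other bright probe set, at 180.1, 349, 204.8 and 223.2, also had both Het arrays above WT, but Hom was 0.31 above WT and above Het replicate 2. The Aurora kinases, the Polo kinase and Nek2 gave no shared direction. Aurka read 129, 151.5, 100.6 and 130.8, and Plk1 105.1, 157, 92.2 and 105.9, high in Het replicate 1 and low in Het replicate 2. Aurkb was at 114.8, 101.9, 112.3 and 100.9, from a probe set with the suffix letter x. It alone of the 40 genes had WT above both Het arrays and those above Hom (3.31% of all genes and 3.61% of those tested). A dim second Aurkb probe set, at 36.8, 27.2, 29.1 and 34, had Hom above both Het arrays. With centred or quantile-normalized arrays, Het replicate 2 lay above WT in the first probe set, by 0.21 and 0.08. No gene had WT below both Het arrays and those below Hom, where 4.16% of all genes and 4.66% of those tested did.

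The G1 genes split. Ccnd1 (cyclin D1) read 340.3, 455.3, 368.9 and 442.2, and Ccnd2 (cyclin D2) 851.9, 920, 1047 and 912.2, WT lowest in both by these probe sets. The 5 bright Ccnd2 probe sets were not on 1 side of WT for any array: one read 303.3, 212.3, 281.5 and 244, with WT highest, and another 230.8, 257.7, 306.1 and 213.5, with Hom lowest. Ccnd3 was lower in Het, at 501.3, 482.7, 389.5 and 549.4, as was Cdkn1b at 80.8, 60.9, 75.9 and 76.3; a dim second Cdkn1b probe set read 25, 26.8, 12.9 and 26.8, with Het replicate 1 above WT. Cdkn1a, the p53-induced inhibitor, was low in Het replicate 1 and high in Het replicate 2, at 801.9, 648.1, 1109 and 848.2, and its second probe set went the other way for replicate 1, at 128.4, 203.4, 143.9 and 168.2. Cdk2 had the widest Het gap of the 40, at 119, 153.7, 78.8 and 139, and Cdk4 read 748.2, 721.3, 868 and 746.7. The other 2 Cdk4 probe sets, at 609.3, 693.9, 820.9 and 552.1 and at 401.1, 464.6, 451.6 and 457.6, had both Het arrays above WT. Ccne1 (cyclin E1), which drives entry into S phase, read 13.3, 15.5, 30.3 and 41.7, so WT and Het replicate 1 were below the floor. Hom was at least 2.21-fold above WT against the floor of 18.9, from a dim probe set that was not tested.

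**Figure D3:**
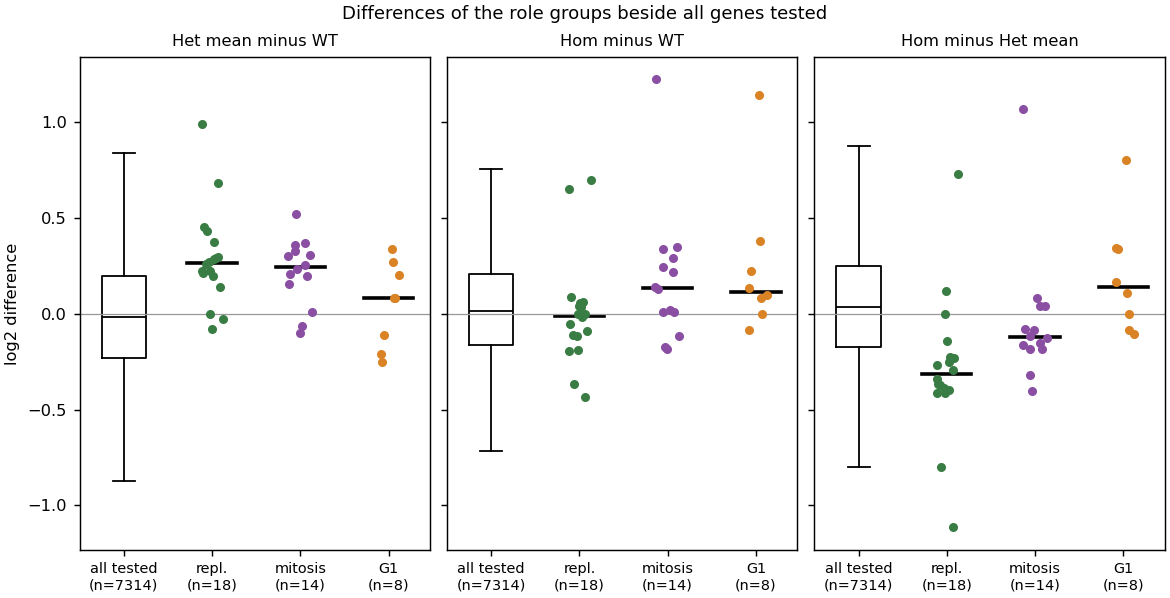
Log2 differences of the role groups beside all genes tested (box: middle 50%, whiskers to 1.5 times the box, outliers left out), for Het mean minus WT, Hom minus WT and Hom minus Het mean; points are genes and bars group medians. The replication median is 0.27 for Het minus WT and -0.32 for Hom minus Het.

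Hom was set against WT, with both copies mutant. The replication genes as a group were level with WT, at a median of -0.01, with 8 above and 9 below; mitosis genes were at 0.13, with 11 of 14 above, and G1 genes at 0.12, with 6 of 8 above, beside 45.5% of all genes and 52.8% of those tested above WT. The median of all genes tested was 0.02. Mcm2, Fen1, Nek2 and Ccne1 were at least 1.5-fold higher in Hom than WT, 4 of 40 against 7.17% of all genes and 4.2% of those tested. None was at least 1.5-fold lower, where 5.37% of all genes and 2.8% of those tested were. Nek2, a kinase that splits the centrosomes, read 48.8 in WT, 64.9 and 45.4 in Het and 113.9 in Hom. Hom was above all other arrays, 2.33-fold above WT (log2 1.22, SE 0.52) and 2.10-fold above Het. Nek2 was the only gene of the 37 to pass an unadjusted limma p of 0.05 for Hom against WT, where 0.588% of genes tested did and 0 passed the adjusted threshold. It has 1 probe set, and WT and Hom had 1 array each. Its mean intensity of 68.25 reached the limit of 62.6 only with the high Hom value counted. Nek2 thus entered the test through the array where it is high, and its unadjusted p-values here and below are no support.

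Hom was also set against Het, 2 mutant copies against 1. This uses the same Het arrays as the comparison of Het with WT, so a gene that read high in Het appears in both. The median replication gene was lower in Hom than in Het by 0.32 log2 units (log2 difference -0.32), the median mitosis gene by 0.12 (-0.12), and the median G1 gene was 0.14 higher, beside 0.04 for all genes tested. Hom lay below both Het arrays at 14 of 18 replication genes, 6 of 14 mitosis genes and 1 of 8 G1 genes, 21 of 40 in all, against 19.1% of all genes and 24.7% of those tested. The 14 were Mcm2, Mcm3, Mcm4, Mcm6, Mcm7, Rpa1, Rpa2, Rpa3, Rrm1, Rrm2, Tk1, Lig1, Pole and Prim1, and the 6 were Ccna2, Mki67, Top2a, Bub1, Aurkb and Cdc20. Hom lay above both Het arrays at 5 genes (Fen1, Nek2, Ccnd3, Ccne1 and Cdkn1b), against 30.2% of all genes and 30.5% of those tested. Without Het replicate 2, whose controls and markers differ from the other arrays, Hom was below the remaining Het array at 27 genes, against 42.2% of all genes and 49.6% of those tested, and above it at 12, against 43.7% and 50.3%; the replication median was -0.20.

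In the limma test of Hom against Het none of the 37 genes passed the adjusted threshold, as for all genes tested (0%), and Rpa2 and Nek2 passed an unadjusted 0.05, where 0.93% of genes tested did. They went opposite ways, with Rpa2 lower in Hom and Nek2 higher. The Rpa2 call rests on the brighter of its 2 probe sets. Pole was lower in Hom than in Het by 0.80 (log2 difference -0.80, SE 0.44). The fit on the number of mutant alleles, with 2 residual degrees of freedom, called 0 of the 37 genes at the adjusted threshold (0% of all genes tested) and Nek2 alone at an unadjusted 0.05 (0.861% of all genes tested). An exact permutation test of 2 arrays against 1 cannot give a one-sided p below 0.333, so none was run.

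Both Het arrays lay above both WT and Hom at 16 of the 40 genes (10.8% of all genes and 14.4% of those tested), of which 11 were replication genes, 4 mitosis genes (Ccna2, Top2a, Bub1 and Cdc20) and 1 a G1 gene (Ccnd2). The reverse, both Het arrays below WT and Hom, held for Fen1, Ccnd3 and Cdkn1b (16.3% of all genes and 17% of those tested). Some margins were near ties. For Fen1 the Het arrays were -0.02 and -0.04 from WT, and for Cdkn1b Hom was 0.008 above Het replicate 2. With centred arrays Het replicate 2 lay above WT for Fen1, by 0.20, and for Cdkn1b, by 0.15. WT and Hom, each a single array, were closer to each other than the Het arrays were. Over the 40 genes the SD of the Hom minus WT differences was 0.34 and that of the Het replicate 2 minus Het replicate 1 differences 0.40, beside 0.33 and 0.58 over all genes tested.

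**Figure D4:**
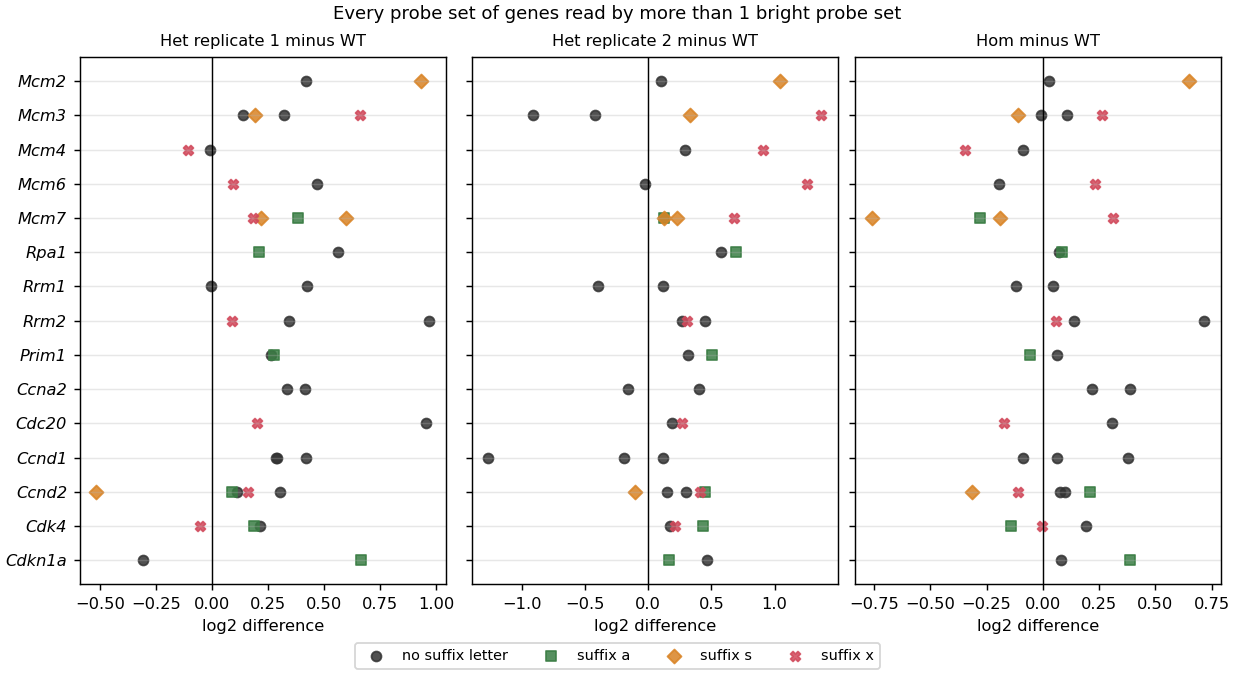
Log2 difference from WT of every probe set with a mean intensity of at least 62.6, for the 15 genes with more than 1 such probe set; marks give the probe set type by its suffix letter. For Het replicate 2 the x type lies at 1.37 for Mcm3 and 1.25 for Mcm6, right of their probe sets with no suffix letter.

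Different probe sets of a gene did not always give the same direction, and least often for Hom. Of 15 genes with more than 1 probe set of mean intensity at least 62.6, all probe sets were on the same side of WT for 11 genes on the Het replicate 1 array, 9 on that of Het replicate 2 and 6 on the Hom array. No share over all genes was computed for agreement between probe sets. The Hom differences were also small, with a median size of 0.12 over the 40 genes, against 0.20 and 0.32 in the Het arrays. For Mcm3 the Het replicate 2 differences ran from -0.91 to 1.37 over 4 probe sets, whereas in Het replicate 1 they ran from 0.14 to 0.66. The x-type Mcm3 probe set read 85.7, 135.4, 221.1 and 102.9, while a probe set with no suffix letter read 78.3, 86.2, 41.7 and 84.3. Mcm6 showed the same split, with its x-type probe set at 109.9, 117.3, 262.2 and 129.1 and Het replicate 2 level with WT in the other. For Ccnd1 the Het replicate 2 differences ran from -1.27 to 0.12 over 3 probe sets with no suffix letter. Mcm7 was above WT in both Het arrays by all 4 probe sets, from 0.18 to 0.60 in Het replicate 1 and from 0.12 to 0.68 in Het replicate 2. Its Hom differences lay on both sides of WT, from -0.76 to 0.31. Rrm2 and Prim1 were also above WT in both Het arrays by every such probe set, as were Mcm2, Rpa1 and Cdc20.

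The type of probe set went with the Het replicate 2 values across the whole array as well. The letters a, s and x mark probe sets that may match more than 1 transcript. Among all 813 x-type probe sets bright enough, the median Het replicate 2 minus WT difference was 0.14, against -0.10 for 6724 with no suffix letter; in Het replicate 1 these were -0.09 and 0.04. Among the probe sets of the genes described here, the 10 x-type ones had a Het replicate 2 median of 0.36 and the 37 with no suffix letter 0.15, and in Het replicate 1 they had 0.09 and 0.27. Restricted to probe sets with no suffix letter, 34 genes remained, of which 18 had both Het arrays above WT and 2 below, against 26.4% and 29.2% of the 5687 genes tested that way; Hom was below both Het arrays at 14, against 22.8%. The part of probe set type in the Het replicate 2 values was not tested further.

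Lists of other genes of the same processes, chosen with earlier results known, were read in the same way. Of 40 other replication genes measured, both Het arrays were above WT at 16 (40%) and below at 8 (20%). These shares were 20.9% and 28.2% of all genes, and 27.1% and 28.8% of those tested. The medians were 0.17 and 0.18 above WT in the 2 Het arrays and -0.08 in Hom. Hom was below both Het arrays at 20 (50%), against 19.1% of all genes and 24.7% of those tested. None of the 35 tested passed limma's adjusted threshold in any of the 3 comparisons, against 0% of all genes. Cdc45, part of the active helicase, read 71, 121, 117 and 81.1, and Uhrf1, which keeps DNA methylation through replication, 45, 80.3, 67.6 and 50.9, both with the Het arrays above WT and Hom. Orc1, the largest subunit of the origin recognition complex, read 19.1, 47.7, 24.8 and 36.3, close to the floor in WT. Against this order, Gmnn (geminin), the inhibitor of origin licensing, read 195.3, 135.6, 145.4 and 166.5, Gins1, a helicase cofactor, 91.9, 75.6, 56.2 and 60.6, and Dnmt1, the maintenance DNA methyltransferase, 292.1, 274, 164.1 and 219.4. These 3 had WT highest.

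Of 46 other mitosis genes, both Het arrays were above WT at 23 (50%) and below at 4 (8.7%). Among genes tested these shares were 27.1% and 28.8%. The medians were 0.17 and 0.40 in the Het arrays and 0.01 in Hom. Hom was below both Het arrays at 21 (45.7%), against 24.7% of genes tested. None of the 37 tested passed limma's adjusted threshold. Anln (anillin), a scaffold of the cleavage furrow, read 199.9, 276.7, 365.4 and 245, and Ncapg, a condensin subunit, 28.1, 39.4, 51.1 and 29.6. Gtse1, a G2 and S phase protein, was below the floor in WT and Hom, at 5, 63.5, 31.2 and 11.1. Lower in Het were Foxm1, a transcription factor of mitotic genes (179.4, 159.8, 98.4 and 183.8), the phosphatase Cdc25b (213.3, 151.3, 183 and 180.3) and the kinesin Kif23 (247.3, 234.7, 209.6 and 149.8).

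Of 27 other G1 regulators, both Het arrays were above WT at 8 (29.6%), close to the 27.1% of genes tested. Both were below WT at 4 (14.8%), against 28.8% of genes tested. Their medians were 0.07 and 0 in the Het arrays and 0.07 in Hom, with none of the 21 tested past the adjusted threshold. Tfdp1, the dimer partner of E2F, read 297.7, 397.9, 371.9 and 304.2, and E2f1 37.8, 45.9, 58.5 and 58.7. Cdkn2d, an inhibitor of Cdk4, was highest in Hom, at 64.5, 76.6, 84.8 and 122.4. E2f4 read 131.6, 109.7, 65.4 and 153.1, the cyclin Ccnh 426.1, 333.1, 227.9 and 291.8, and the inhibitor Cdkn2b 164.4, 130, 137.1 and 148.5, all with WT above both Het arrays.

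**Figure D5:**
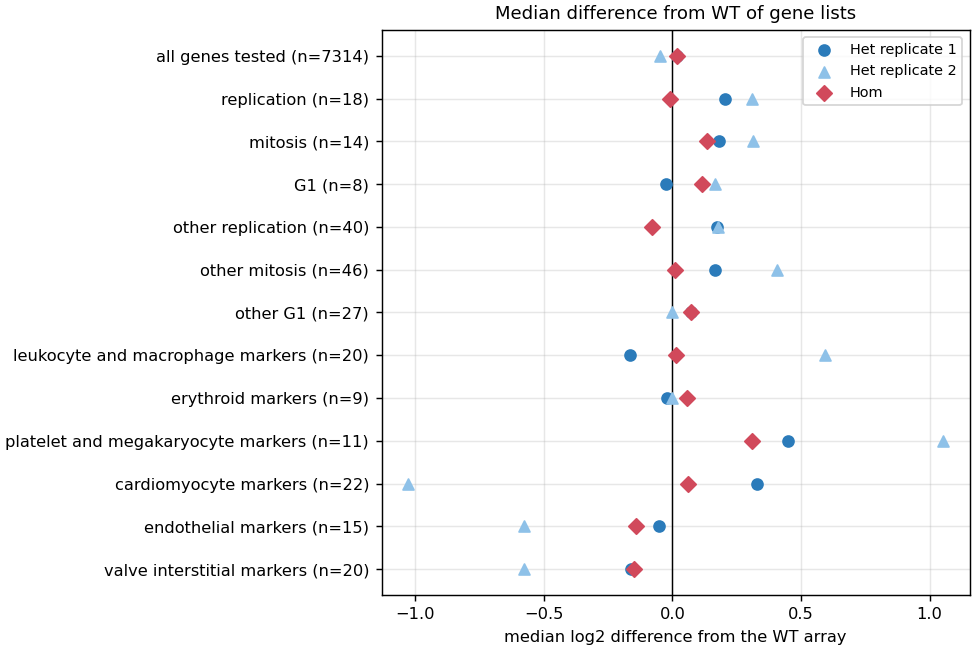
Median log2 difference from the WT array of each gene list, for Het replicate 1 (circles), Het replicate 2 (triangles) and Hom (diamonds), with the number of genes. Replication and mitosis lists lie right of 0 in both Het arrays, as do platelet and megakaryocyte markers. Leukocyte markers lie at -0.16 in Het replicate 1 and at 0.59 in Het replicate 2.

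Markers of other cell types also differed between the arrays. The summed intensity of 20 leukocyte and macrophage markers was 5318, 4632, 8433 and 5270, with 7 of 20 above WT in Het replicate 1 and 17 in Het replicate 2; Ptprc, the pan-leukocyte CD45, read 127.6, 117, 171.5 and 122.7. The 9 erythroid markers summed to 1559, 1431, 3233 and 1738, with 2 of 9 above WT in Het replicate 1 and 4 in Het replicate 2, where their median difference was 0. That sum was carried by Alas2, which makes haem in erythroid cells (1065, 959.2, 2255 and 1248), Hbb-b2 and Slc4a1. The erythroid factors Klf1 (60.9, 46.1, 31.2 and 41.7) and Gata1 (72.7, 59.9, 49.4 and 38.6) were highest in WT. By contrast, Hba-a1 (11, 40.1, 27.2 and 26.1) and Ermap (36.8, 63.6, 27.7 and 47.9) were highest in Het replicate 1. WT was below the floor for Hba-a1, and Epb42 and Rhag were below it on every array. The leukocyte and erythroid sums were high in Het replicate 2 and below WT in Het replicate 1. The 11 platelet and megakaryocyte markers summed to 1685, 2916, 4550 and 1619, high in both Het arrays, with 9 and 10 of 11 above WT. In Hom 7 of 11 were above WT, with a median of 0.31, although the sum was below it. Pf4, a platelet chemokine and the brightest of the list, read 964.7, 1401, 1999 and 721. The 15 endothelial markers summed to 10483, 9914, 7085 and 9327, the 20 valve interstitial markers to 76896, 67180, 44035 and 65707, and the 22 cardiomyocyte markers to 54371, 69444, 26033 and 54491, all lowest in Het replicate 2. Of the cardiomyocyte markers 2 of 22 were above WT there, Myl7 (1673, 1364, 2659 and 1348) and Sln (107.5, 86.5, 292.2 and 130.6). The part of all these markers in the replication and mitosis values was not tested, and with 1 WT array a difference of that array from all others cannot be told apart from genotype.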

How the data were processed

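Total RNA from mouse mitral valve was read on 4 single-colour oligonucleotide arrays (1 WT, 2 Het, 1 Hom, by the labels). The authors deposited linear intensities for 22690 probe sets; the software and detection calls are not given in the sources used here. Trimmed means (2% left out at each end) were 150.1 on every array, so the deposited scaling was kept, unlike median centring, which raised Het replicate 2 by 0.19 log2 units. The 64 control probe sets were left out. Of the others, 20380 had 1 gene, 691 several and 1555 none in the platform annotation; 20351 of the first were matched to the RefSeq gene table. Each gene took its probe set with the highest mean. Values were floored at the 25th percentile (18.9) and log2 transformed.

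Group medians and counts used all 40 genes with no filter. Tests used genes with a mean of at least 62.6 (the median probe set): limma 3.58.1 in R 4.3.3, lmFit and eBayes on 3 groups or on allele number, Benjamini-Hochberg over 7314 genes. The fit was also run on simulated data, with noise pooled over genes from the Het pair. That run does not measure the power of the fit for the differences given here. The number of arrays limits precision. Genes and lists were chosen with earlier results of these data known. Values on all arrays were given for, in each role, the 5 genes with the greatest Het minus WT size with both Het arrays on 1 side, the 3 greatest Hom minus WT, the 3 widest Het gaps, any gene called by limma, and Mki67, Top2a, Pcna, Cdkn1a and Cdkn1b; other genes shown were chosen after their values were seen. In each list of other pathway genes the 3 highest and 3 lowest were named. Alternatives were other scalings, floors, filters, probe set rules, eBayes settings and each Het array left out.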

Additional observations from a re-analysis of the deposited data

How the results depend on the processing

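No paired analysis was possible because only the Het group has replicate numbers. In none of the settings run for the limma fits (other scalings, floors, filters, probe set rules, eBayes with trend and robust, probe sets in place of genes and, for the allele trend, each Het array left out) did any of the 40 genes pass an adjusted p of 0.05; without either Het array the 3-group fit has no residual degree of freedom. The count with both Het arrays above WT was 18 to 27 over the settings that kept both. The 18 was of 34 genes, beside 26.4% of genes tested that way, and the 27 of 40, beside 35.4% of genes tested. With Het replicate 1 left out the count was 27, against 35.2% of all genes. With Het replicate 2 left out it was 30, against 44.6%. With arrays centred on a common median, which put the median gene tested 0.19 above WT in Het replicate 2, the Het minus WT medians were 0.38 for replication and 0.35 for mitosis, and the Hom minus Het medians were -0.47, -0.27 and, for G1, -0.012, a change of sign; 1 gene then had both Het arrays below WT, against 2 after quantile normalization and 2 with only probe sets with no suffix letter. Without Het replicate 1, 12 genes were below WT in the other Het array, as were 6127 of all 12393 genes. Hom was above that array at 11, with no share over all genes computed. Without Het replicate 2, 8 genes were below WT, as were 5120 of all 12393 genes, and Hom was above at 12 (43.7% of all genes). The replication median for Hom minus Het was -0.39 and -0.20 in that order. The G1 median for Het minus WT was -0.03 without Het replicate 2. Genes at least 1.5-fold higher in Hom than WT numbered 2 when probe sets were averaged and 2 at a limit of 2-fold, with no share over all genes computed. In all, 154 of 169 alternative values stayed within 1.5 times a count or 1 SD of the median between the Het arrays, and 15 did not. The cause was not tested. The 154 include all limma call counts and all counts of genes at least 1.5-fold lower in Hom than WT. Both were 0 in every setting, so they say nothing of how the other counts and medians depend on the settings. Dim probe sets limit Tyms, Ccne1 and Bub1.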
